A study of Drosophila melanogaster with 4 samples.

Results

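The genes described here encode the histone methyltransferases trx, trr, Set1 and ash1 of Drosophila and proteins that work in complexes with them, namely ash2, wds, Rbbp5, Utx, Mnn1 and Ptip. These 10 genes were chosen by gene symbol, with earlier results of these data known. The probe annotation of the array names 12057 genes. Probes for 8 of the 10 were named, and all 8 had values in both RNA extractions of the mutant and were tested, along with 10041 genes in all. Set1 and ash1 had no probe under their symbol, gene identifier or transcript accessions in that annotation and are therefore not reported. Each of 4 arrays compared whole larvae in the third instar of the genotype w1118;+;trxE3/trxB11 with a pool of wild-type larvae of the isogenic line w1118;+;+, both staged by bromophenol blue in the gut. Mutant RNA came from 2 extractions, and each was hybridized on a pair of dye-swapped arrays, so that the mutant was in Cy3 on arrays 1 (extraction 1) and 3 (extraction 2) and in Cy5 on arrays 2 (extraction 1) and 4 (extraction 2). Every mutant larva thus carries trxE3 over trxB11 and no wild-type copy of trx, in the same w1118 background as the control. Per the methods, chromosomes X, Y and 2 of the allele stocks were replaced by those of the isogenic line. Chromosome 3, which carries trx, and chromosome 4 are not listed among those transferred. Mutant genotype and chromosome origin therefore cannot be told apart for genes on chromosomes 3 and 4.

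COMPASS-type complexes methylate lysine K4 of histone H3, a modification of active promoters and enhancers, and in Drosophila they are built around Set1, trx or trr. All of them share a core made of ash2, wds and Rbbp5 together with a Dpy-30 protein, which the catalytic subunit needs for full activity. Other subunits are specific to a complex: Mnn1 (menin) to that of trx, and Ptip and the histone H3K27 demethylase Utx to that of trr. The methyltransferase ash1 acts outside these complexes, on lysine K36 of the same histone. Like trx, ash1 and ash2 are trithorax group genes, which keep homeotic genes active during development.

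Each value is the log2 of the mutant signal over that of the wild type, and it is above 0 where a transcript was more abundant in the mutant. A ratio does not show how abundant a transcript is, and in whole larvae a change per cell cannot be told apart from a change in the share of the cells that express the gene. The log2 ratios of a gene were averaged over its probes, over the arrays of an extraction and then over the extractions, and this mean was tested against 0 with limma over all genes. Errors are the moderated standard errors of limma, intervals are 95% intervals of the same fit, and n is 2 extractions throughout. Whether the extractions came from separate cultures is not stated, so that the p-values measure the spread between extractions. The wild-type pool is a single control sample on every array, and its own spread is not part of any p-value. A gene was called where its adjusted p was under 0.05, with or without the additional requirement of a 2-fold change that the methods apply. Between 11199 and 12775 spots per array had a value, the dye-swapped arrays of an extraction correlated with Pearson's r of 0.904 and 0.881 across probes, and arrays of different extractions with r between 0.71 and 0.824.

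Transcripts of ash2 were higher in trx mutant larvae, and those of the other 7 genes tested did not pass the threshold. The mean log2 ratio of ash2, measured by a single probe, was 0.72 (standard error 0.0556, 95% interval 0.54 to 0.91, adjusted p = 0.0274, limma), which is 1.65-fold. At the 2-fold threshold 0 of 8 genes were called, where 4.09% of all genes tested were called in either direction. At an adjusted p under 0.05 and any fold change 1 of 8 was higher and 0 were lower, against 6.49% higher and 8.18% lower, or 14.7% in either direction, among all genes tested. With so few genes, this count does not stand apart from the background. The unadjusted p was under 0.05 for 3 of the 8 genes, namely ash2, wds and trx, and for 3833 of all genes tested.

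The trx transcript itself was not lower in the mutants on any array. Its single probe had log2 ratios of 0.22 on array 2, 0.13 on array 3 and 0.28 on array 4, and the spot was removed on array 1. All of these values were above 0. The mean of extraction 1 was 0.22, from array 2 alone, and that of extraction 2 was 0.20, an average of 0.13 and 0.28. The mean log2 ratio was 0.21 (standard error 0.0473, 95% interval 0.06 to 0.37), or 1.16-fold, at an adjusted p of 0.0859 in limma. The sources used here give neither the molecular lesions of trxE3 and trxB11 nor the position of the probe in the transcript. The ratio therefore gives the level of a mutant transcript at the probe and does not check the genotype. Because array 1 is missing, extraction 1 is represented by the mutant in Cy5 alone, and any difference between the dyes is not balanced there.

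The gene of the related methyltransferase trr, on the X chromosome, did not pass the threshold and had no settled sign. Its log2 ratios were -0.01 on array 2, -0.14 on array 3 and 0.07 on array 4, on both sides of 0. The mean was -0.02 (standard error 0.0478, adjusted p = 0.751, limma), and the 95% interval from -0.18 to 0.14 corresponds to 0.882-fold to 1.10-fold.

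Among the core subunits shared by all COMPASS-type complexes, ash2, wds and Rbbp5 each had a value on all 4 arrays, and the values of the 3 genes did not overlap. The human counterparts of ash2 and Rbbp5 bind the catalytic subunit as a pair. The log2 ratios of ash2 were 0.79 on array 1, 0.76 on array 2, 0.66 on array 3 and 0.69 on array 4. They differed little with the dye, while both arrays of extraction 1 were higher than both of extraction 2. Of 10041 genes tested, ash2 was the 450th from the highest by mean log2 ratio, so that 4.48% of genes were at or above it. Its range over the 4 arrays was 0.13, against a median range of 0.27 over the 7262 genes measured on every array.

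The gene wds encodes the WD-repeat protein that corresponds to human WDR5, another subunit of the core. Its log2 ratios were 0.53 on array 1, 0.24 on array 2, 0.38 on array 3 and 0.25 on array 4. All were above 0, and both arrays with the mutant in Cy3 were higher than both with the mutant in Cy5. The mean log2 ratio was 0.35 (standard error 0.0513, 95% interval 0.18 to 0.52), or 1.28-fold, and at an adjusted p of 0.0522 in limma it did not pass the threshold. With each array centered on its median the adjusted p was 0.0475 and with only genes measured on all 4 arrays it was 0.0437, both past the threshold. With any single array left out it was 0.0648 to 0.0940 in limma, not past the threshold. With the mutant in Cy3 alone it was 0.0408 and in Cy5 alone 0.0692 (limma for both), settings chosen after the data were seen.

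Rbbp5, the beta-propeller subunit of the core, had log2 ratios of 0.00067 on array 1, 0.03 on array 2, 0.01 on array 3 and -0.0014 on array 4. Its mean was 0.01 (standard error 0.0472, adjusted p = 0.875, limma), with a 95% interval from -0.14 to 0.17, that is from 0.904-fold to 1.12-fold. The range of Rbbp5 over the arrays was 0.035, and 0.427% of the genes with 4 values had a smaller range. On each array the log2 ratio of ash2 was thus above that of Rbbp5, by 0.65 to 0.79, and above that of wds, by 0.26 to 0.52. By extraction, ash2 exceeded wds by 0.39 and 0.36 and wds exceeded Rbbp5 by 0.37 and 0.31, differences larger than the gap between the extraction means of any of these genes. No test of these differences between genes was run.

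**Figure D1:**
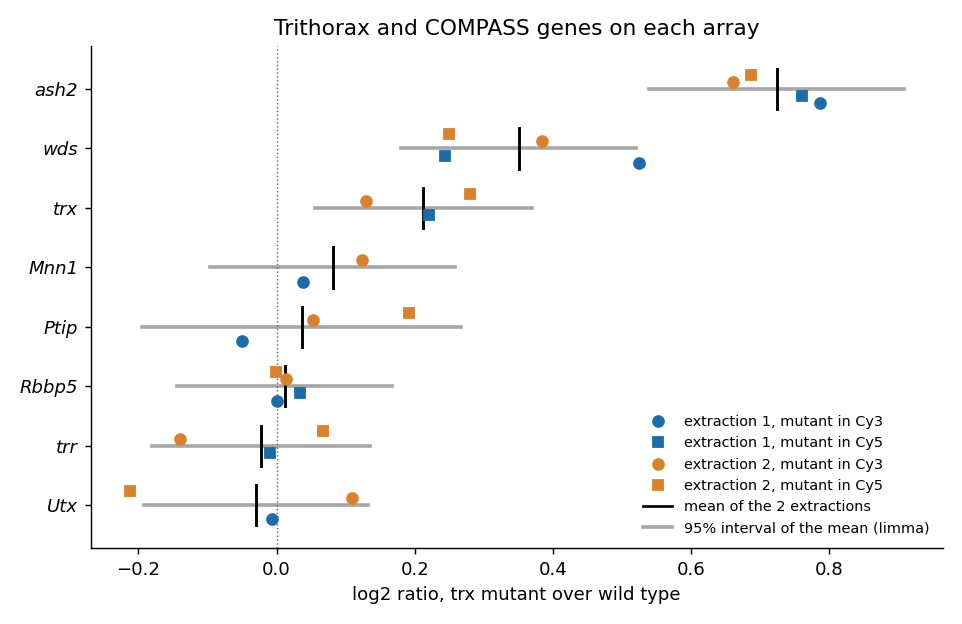
Log2 ratio of trx mutant over wild-type larvae (x axis) for the 8 genes tested (y axis), with a circle or square for each array, a black line for the mean of the 2 extractions and a gray bar for its 95% interval from limma. The 4 points of ash2 lie between 0.66 and 0.79, those of wds between 0.24 and 0.53 and those of Rbbp5 between -0.0014 and 0.03.

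Subunits that belong to a single type of complex lay near 0 and were measured on fewer arrays. Mnn1 encodes menin, the subunit of the trx complex. It had values with the mutant in Cy3 alone, 0.04 on array 1 and 0.12 on array 3, so that a difference between the dyes would not cancel. Its mean log2 ratio was 0.08 (standard error 0.0535, 95% interval -0.10 to 0.26, adjusted p = 0.347, limma).

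Ptip, which encodes a BRCT-domain subunit of the trr complex, had log2 ratios of -0.05 on array 1, 0.05 on array 3 and 0.19 on array 4. The extractions lay on either side of 0, at -0.05 and 0.12. The mean log2 ratio was 0.04 (standard error 0.0698, 95% interval -0.20 to 0.27, adjusted p = 0.730, limma).

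Utx was measured by 2 probes, each of which had 2 values. The log2 ratios of the first listed probe were 0.06 on array 1 and 0.11 on array 3, and those of the other were -0.07 on array 1 and -0.21 on array 4. The probes thus had opposite signs on array 1, where both were present, and the gene mean of -0.03 averages over them (standard error 0.0489, 95% interval -0.19 to 0.13, adjusted p = 0.687, limma). Without array 4 the mean was 0.05. No direction can be given for Utx from these values.

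From highest to lowest mean log2 ratio, the order was ash2, wds, trx, Mnn1, Ptip, Rbbp5, trr and Utx. The 95% intervals of neighbors in this order overlap throughout, apart from those of ash2 and wds, which lie at 0.54 to 0.91 and 0.18 to 0.52. Values were above 0 on every array measured for ash2, wds, trx and Mnn1, which are 4 of 8 genes, against 28.3% of all genes tested. They were below 0 on every array for 0 of 8, against 34.2%. Mnn1 had values on 2 arrays and trx on 3, whereas 7262 of 10041 genes tested had values on all 4. A shared sign is easier to reach with fewer arrays, so that these shares are not like for like. No test of them was run. The median log2 ratio of the 8 genes was 0.06, with 0.03 in extraction 1 and 0.12 in extraction 2, and that of all genes tested was -0.02.

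**Figure D2:**
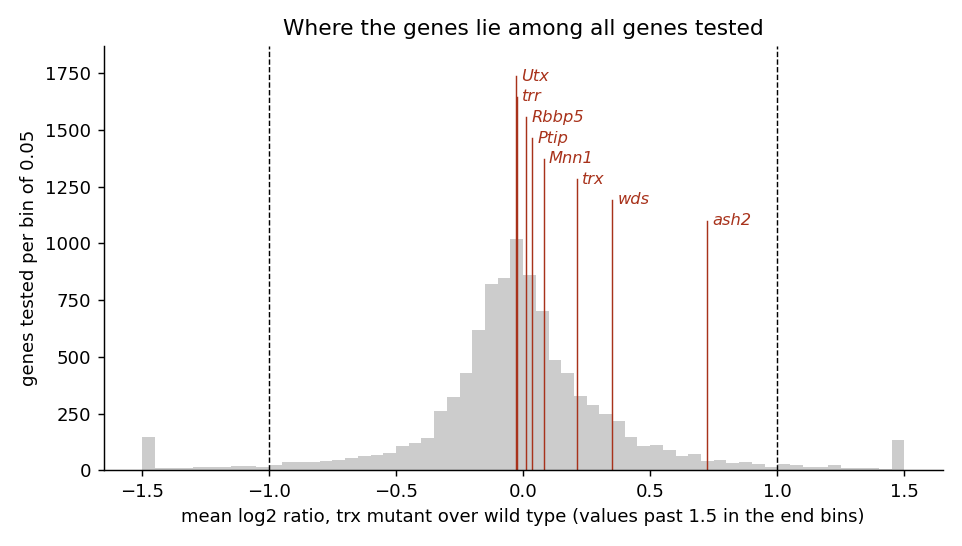
Number of genes tested (y axis) per bin of mean log2 ratio of trx mutant over wild type (x axis, with values past 1.5 gathered in the end bins), with a red line at the mean of each of the 8 genes and dashed lines at a 2-fold change. The line of ash2 at 0.72 lies in the upper tail and inside the 2-fold limits, and those of Utx, trr, Rbbp5, Ptip and Mnn1 lie between -0.03 and 0.08.

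Of further subunits and partners of these complexes, none passed the threshold. In a list of 12 such genes, all of them tested with limma, 0 were called higher and 0 lower, 2 had an unadjusted p under 0.05, and the median log2 ratio was 0.04 (from -0.27 to 0.28). Among all 10041 genes tested, 6.49% were called higher and 8.18% lower, and 3833 had an unadjusted p under 0.05. With 12 genes, the absence of calls does not stand apart from the background. The Dpy-30 proteins complete the core, and their genes had mean log2 ratios of 0.12 for Dpy-30L1 (adjusted p = 0.198) and -0.06 for Dpy-30L2 (adjusted p = 0.416, limma for both). For Dpy-30L1 the values with the mutant in Cy5 (0.27 and 0.22) were above those in Cy3 (0.00048 and -0.02). Cfp1 and Wdr82, which are subunits of the Set1 complex, had mean log2 ratios of 0.05 (adjusted p = 0.604) and 0.16 (adjusted p = 0.134, limma for both).

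In Drosophila trx has also been isolated in a complex named TAC1 with the acetyltransferase CBP, encoded by nej, and with Sbf. Sbf had log2 ratios of -0.16, -0.39, -0.30 and -0.25 on arrays 1 to 4, with extraction means of -0.28 and -0.27. Its mean of -0.27 (standard error 0.0471, adjusted p = 0.0631, limma) was the lowest of the list and did not pass the threshold. The values of nej were -0.18 on array 2, 0.16 on array 3 and -0.09 on array 4, on both sides of 0. The gene CG4236, which encodes p55, a histone-binding WD-repeat protein that together with MRG15 accompanies ash1, had the highest mean of the list, 0.28 (standard error 0.0540, adjusted p = 0.0715, limma), with 0.45 on array 1 and values from 0.20 to 0.24 on the others. MRG15 had a mean log2 ratio of 0.08 (adjusted p = 0.384, limma). All genes of this list are named here with values, whereas the single genes named below from the lists of other histone enzymes and of dividing and germline cells were chosen after their values were seen.

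Genes of the trr complex other than trr, Utx and Ptip are Lpt, Ncoa6 and Pa1. Their mean log2 ratios were 0.10, 0.02 and 0.01, at adjusted p values of 0.340, 0.751 and 0.902 in limma. Hcf, which encodes a host cell factor found with several of these enzymes, had a mean of -0.05 (adjusted p = 0.482, limma). None of these genes had an interval that left out 0.

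No gene among the other histone lysine methyltransferases and the demethylases passed the threshold. Over all 10041 genes tested, 4608 had a mean above 0, 3833 had an unadjusted p under 0.05 and 14.7% were called in limma. Of 9 methyltransferase genes listed, 4 were tested, all 4 had a mean below 0 (from -0.16 for Set2 to -0.05 for NSD), and 0 were called by limma at the adjusted and 0 at the unadjusted p under 0.05. Of 7 demethylase genes listed, 6 were tested, all 6 had a mean above 0 (from 0.05 for Kdm3 to 0.48 for Kdm5), and 0 were called at the adjusted and 1 at the unadjusted p under 0.05. Kdm5, also known as lid, removes methyl groups from H3K4 and so acts against the COMPASS enzymes. Its log2 ratios were 0.67 and 0.59 on the arrays of extraction 1 and 0.43 and 0.24 on those of extraction 2. All were above 0, but the extractions differed, and at an adjusted p of 0.0773 (standard error 0.0989, limma) the mean of 0.48 did not pass. Su(var)3-3, another demethylase of H3K4 in the list, had a mean log2 ratio of 0.06 (adjusted p = 0.425, limma).

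**Figure D3:**
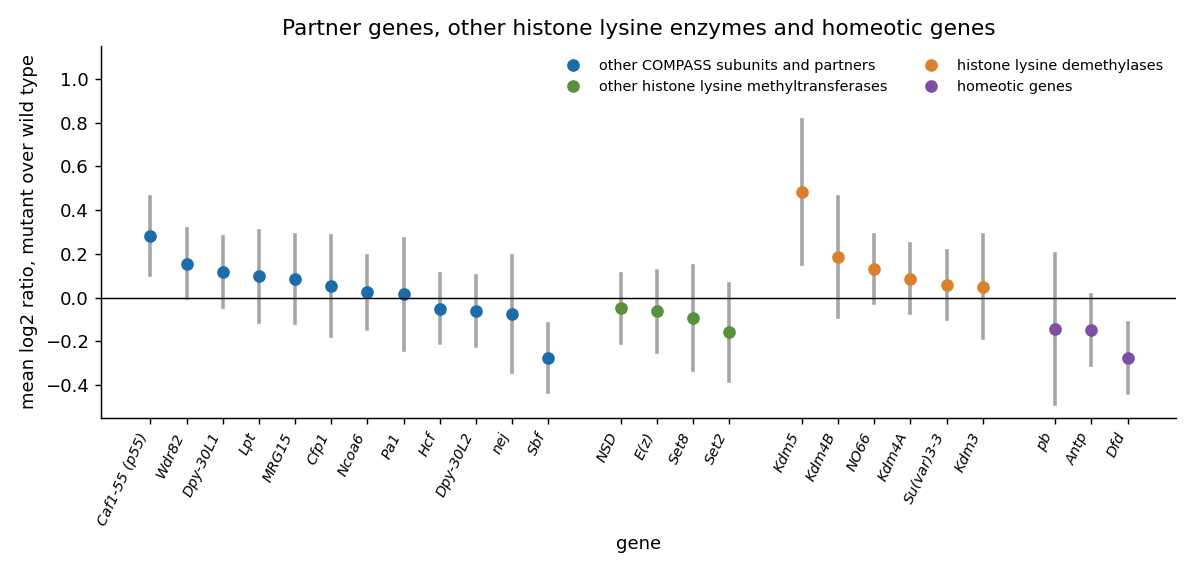
Mean log2 ratio of trx mutant over wild type (y axis) with its 95% interval from limma (gray) for the tested genes (x axis) of 4 lists, colored by list. The means lie between -0.28 for Dfd and 0.48 for Kdm5, and none of these genes passed an adjusted p of 0.05.

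Homeotic genes, whose activity trx maintains, were poorly covered by the probe annotation used here. The study reports lower levels of most homeotic genes in these mutants, short of its fold threshold. Of 8 listed genes, 3 were tested, namely pb, Dfd and Antp, all 3 had a mean below 0, and 0 were called by limma at the adjusted and 1 at the unadjusted p under 0.05. Of all 10041 genes tested, 4608 had a mean above 0, 3833 had an unadjusted p under 0.05 and 14.7% were called. With 3 genes, these counts do not stand apart from the background. Scr had a value on array 3 alone and was not tested, and lab, Ubx, abd-A and Abd-B had no probe under their names in the annotation used. Dfd, which specifies head segments, had log2 ratios of -0.29, -0.28, -0.23 and -0.29 on arrays 1 to 4. All were below 0 and close together, and the mean of -0.28 (standard error 0.0476, 95% interval -0.43 to -0.12, adjusted p = 0.0633, limma) did not pass the threshold. Antp, which specifies thoracic segments, had -0.05, -0.28, -0.09 and -0.18 on the same arrays, with a mean of -0.15 (standard error 0.0482, adjusted p = 0.142, limma). The values of pb, which acts in the mouthparts, were 0.01 on array 2 and -0.30 on array 3 (mean -0.14, adjusted p = 0.387, limma).

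Because chromosomes 3 and 4 of the mutant stocks may differ from those of the control line, the genes were also read by chromosome. Of those tested, trx and ash2 lie on 3R, Rbbp5 and Ptip on 3L, trr and wds on X, and Mnn1 and Utx on 2L. Means above 0.2 thus occurred for the genes on 3R and for wds on X, and means below 0.1 for the genes on 3L and 2L and for trr on X. Over all genes tested, the share called higher was 7.30% on 3R and 5.69% on 3L, beside 7.26% on 2R, 6.28% on 2L and 6.42% on X. The share called lower was 8.70% on 3R and 10.3% on 3L, beside 8.11% on 2R, 7.57% on 2L and 6.61% on X. On chromosome 4, with only 54 genes tested, 1.85% were called higher and 13% lower. Hcf and the fat body gene apolpp lie on chromosome 4. These shares are over whole arms, and the part of the origin of chromosome 3 in the ratios of ash2 and trx was not tested. No test of differences between chromosome arms was run.

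The neighbors of ash2 on 3R had values on both sides of 0. Among the 5 tested genes on either side, which were chosen after the value of ash2 was seen, 1 was higher and 1 was lower, against 6.49% and 8.18% of all genes tested, and the median log2 ratio was 0.02. A count of this size in 10 genes does not stand apart from the background. Wsck, in the second place before ash2, was higher with log2 ratios of 0.78, 0.52, 0.58 and 0.35 on arrays 1 to 4 (mean 0.56, adjusted p = 0.0451, limma). CG31126, in the third place after it, was lower with a mean of -0.39 (adjusted p = 0.0422, limma). Both calls were lost when single arrays were left out, while the log2 ratios stayed of similar size. Wsck had a mean of 0.62 without array 2 (adjusted p = 0.0539) and 0.50 without array 3 (adjusted p = 0.0748, limma for both). CG31126 had -0.37 without array 1 (adjusted p = 0.0656) and -0.39 without array 4 (adjusted p = 0.0626, limma for both). The span of CG31125 overlaps that of ash2 in the gene table, and its mean log2 ratio was 0.18 (adjusted p = 0.155, limma). The immediate neighbor on the other side, puf, had a mean of -0.03 (adjusted p = 0.745, limma).

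Around trx, 0 of 10 tested neighbors were higher and 2 were lower, against 6.49% higher and 8.18% lower among all genes tested, and this count does not stand apart from the background either. The latter were CG9616, with a mean log2 ratio of -0.61 (adjusted p = 0.0306), and CG31321, with -1.20 (adjusted p = 0.0337, limma for both), in the fourth place before and the third place after trx. The tested genes directly beside trx, CG14841 and IFT54, had means of 0.03 (adjusted p = 0.700) and 0.03 (adjusted p = 0.643, limma for both).

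**Figure D4:**
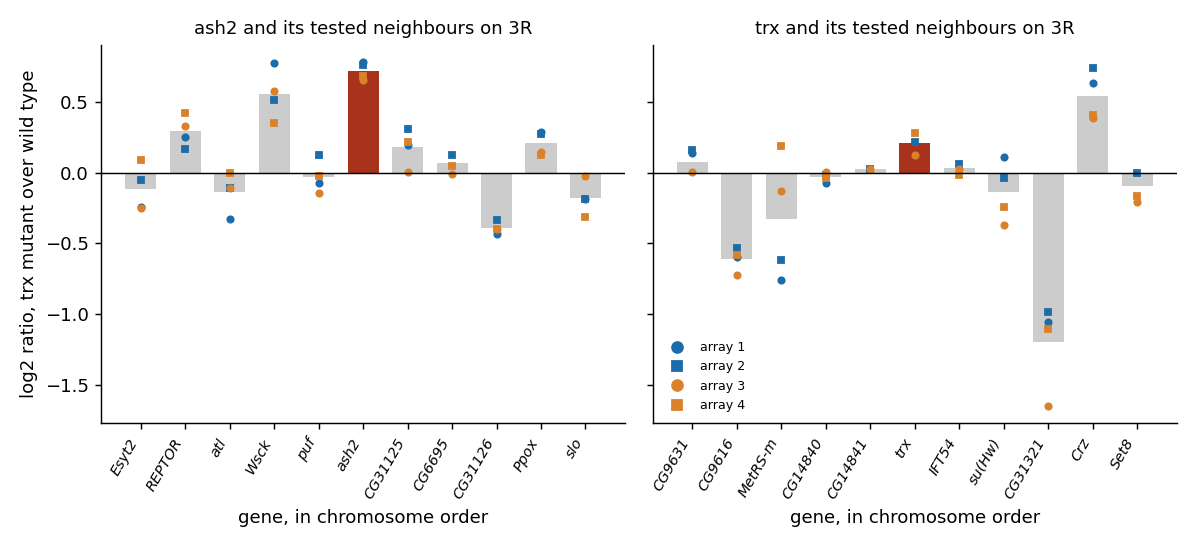
Log2 ratio of trx mutant over wild type (y axis) for ash2 (left) and trx (right), each in red among the 5 tested genes on either side in chromosome order (x axis), with bars for the mean and points for the arrays. The bar of ash2 at 0.72 stands between puf at -0.03 and CG31125 at 0.18.

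Marker genes of tissues that a whole larva contains were read beside these values. Ratios do not show whether such a tissue was present, only whether its transcripts differed. Among all 10041 genes tested, 14.7% were called, 3833 had an unadjusted p under 0.05 in limma and 4608 had a mean above 0. No test of the marker lists against these shares was run. Of 10 genes of dividing cells 7 were tested and 0 called by limma (4 at an unadjusted p under 0.05), with a median log2 ratio of 0.02 and a range from -0.20 to 0.33, the highest being that of Mcm2. Of 8 neural genes 6 were tested and 0 called (1 at an unadjusted p under 0.05, median -0.02, from -0.23 to 0.08), and of 6 germline genes 4 were tested and 0 called (2 at an unadjusted p under 0.05, median -0.23, from -0.34 for aub to -0.03 for nanos, all 4 below 0). Of 6 fat body genes 3 were tested, 1 was called higher and 1 lower. Fbp1 did not pass, with a mean log2 ratio of 0.27 from arrays 2 and 4 (adjusted p = 0.1655, limma). Lsp2, a larval storage protein gene, was higher with a mean log2 ratio of 3.98 (standard error 0.0796, adjusted p = 0.0142, limma) and apolpp, a lipoprotein gene, was lower with -0.61 (standard error 0.0776, adjusted p = 0.0443, limma). Lsp2 had no value on array 4, so that its extraction 2 rests on array 3 alone. The call of apolpp was lost without array 2, where its adjusted p was 0.156, and without array 3, where it was 0.0618. The part of tissue composition in the ratio of ash2 was not tested.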

How the data were processed

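The authors deposited a log2 ratio for each spot. Per their methods, images were read in GenePix Pro, spots below quality thresholds were discarded, normexp in limma served for background correction, and OLIN served for normalization within arrays and, by median absolute deviation, between the 4 arrays. Removed spots reduce the arrays behind a gene and can unbalance its dyes. The sources used here do not give the versions of limma and OLIN in that work. All pairs of arrays correlated above 0 although the dyes were swapped, which shows that the deposited ratios share a direction. Direction and log base are not stated in the file and were taken from the study's gene lists: 237 of 244 probes of over-expressed genes had a mean above 0, 246 of 248 probes of under-expressed genes had a mean below 0, and 215 and 238 of them were at least 1 in size, as a log2 scale and a 2-fold threshold give.

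Of 16416 probes, 13163 name 1 gene in the platform annotation, 102 name several or none and 3151 are not listed there. The NCBI gene table (Release 6 plus ISO1 MT) gave current symbols for 12673 probes by gene identifier, accession or symbol, and 490 kept the platform symbol. It was also used for chromosome arms and gene order, and no coordinates are printed. Sequences are not shown because none was among the sources used here.

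Probes were averaged per gene and array, then over the arrays of an extraction. An intercept was fitted to the 2 extraction means with limma 3.58.1 (R 4.3.3; prior degrees of freedom 1.80, prior SD 0.0830) with Benjamini-Hochberg adjustment over 10041 genes. The fit was tested on simulated data. Errors of genes with nearly equal extractions rest mostly on the prior. The number of arrays limits the precision. The genes and lists were chosen with earlier results of these data known. The text names all 10 genes, list genes past the threshold and the homeotic genes with a value. Beyond this rule it names the whole list of further subunits and partners and the neighbors of ash2 and trx that the text describes, and single genes of other lists that were chosen after their values were seen. Alternatives were the replicate unit, missing spots, centering, scaling, probe averaging, the variance prior, the symbols used and leaving out arrays or extractions. One dye at a time was added after the data were seen.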

Additional observations from a re-analysis of the deposited data

Results flagged for a closer look

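Over the 4 arrays, 2 of the 14 genes checked had 1 array apart from the others by Dixon's ratio, which chance gives in about 1 in 20 groups. For Dfd, array 3 at -0.23 stood apart from values of -0.29, -0.28 and -0.29 (ratio 0.845), all of them within a narrow range. For p55 (CG4236), array 1 at 0.45 stood apart from values of 0.20, 0.24 and 0.24 (ratio 0.864). The ratio was 0.212 for ash2, 0.503 for wds and 0.585 for Rbbp5, all under the critical value.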

How the results depend on the processing

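The call of ash2 held in all 14 alternatives in which it was tested (log2 ratio 0.72 to 0.75, adjusted p 0.00043 to 0.0327, limma), and 0 of the genes reached 2-fold in any of them. With 1 probe and values on all 4 arrays, its ratio could not change with probe averaging, missing spots, symbols or the variance prior. In place of 1 gene past the adjusted p, 3 passed with the 4 arrays as independent samples and 3 with extraction as a random block (consensus correlation -0.112), the added genes being wds (adjusted p = 0.011 and 0.0078) and trx (0.0492 and 0.0399). Per the methods, both arrays of a pair carried the same amplified RNA. Taking the 4 arrays as independent samples thus counts repeats of the same RNA, and a block correlation below 0 does not correct for this. With each array centered on its median 2 passed, with genes on all 4 arrays 2 of 3, and with the mutant in Cy3 alone, a setting chosen after seeing the data, 2 of 6, wds being the addition in each. Over all alternatives the adjusted p was 0.0078 to 0.094 for wds and 0.0399 to 0.24 for trx. The number of all genes past the adjusted p was 1473, against 3606 with the 4 arrays as independent samples, 3945 with the random block and 969 without array 1.

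The median log2 ratio of 0.06 was 0.35 over the 3 genes on all 4 arrays, 0.25 over 5 genes with the mutant in Cy5 alone, and 0.0278 to 0.21 when an array or extraction was left out. The highest of these, without array 1, rests on 5 genes. The mean of trr turned to 0.0012 with centered arrays and to 0.0291 with the mutant in Cy5 alone and without array 3, and that of Utx to 0.0513 with the mutant in Cy3 alone and without array 4. Leaving out single arrays or extractions gave -0.0747 to 0.0291 for trr and -0.11 to 0.0513 for Utx. Sbf, p55 (CG4236), Dfd and Kdm5 passed the threshold where the 4 arrays were taken as samples or in the random block, Kdm5 also with the mutant in Cy3 alone. With a single extraction left there is no test. No paired analysis was possible because all mutant samples form 1 group that was hybridized against a common pool.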
